A study of Danio rerio with 12 samples.

Results

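Whole zebrafish (Danio rerio) of a wild-type strain, aged 2 days and labelled with 2 ng of synthetic miR-29a, were compared by RNA sequencing with whole embryos of the same strain and age without a perturbation. The miR-29a group was made up of replicates 1, 2 and 4 and the control group of replicates 1 to 4, so that 7 of the 12 libraries of the series were used and fitted alone. miR-29a replicate 3 was left out because short genes are over-represented in it, and 4 libraries with 2 ng of synthetic miR-101a served only for a direct test between the microRNAs. No mock-treated group and no route of delivery are named in the labels. Nor do they state that replicates came from separate clutches, so the p-values reflect only the variation among these samples, part of which may be technical.

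MicroRNAs pair, as part of Argonaute complexes, with sites in the 3′ untranslated regions of messenger RNAs and thereby reduce the stability or translation of those messengers. The miR-29 family is best known for targeting collagens and other genes of the extracellular matrix, the protein network between cells. Genes that are not targets can change as well, when a target encodes a regulator, when tissues develop differently or when cells are stressed. At 2 days a zebrafish embryo has a beating heart, contracting trunk muscle, a lens, early photoreceptors and fin folds stiffened by actinotrichia fibres. The libraries hold fragments of messenger RNA, so the level of mature miR-29a itself was not measured.

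Total gene counts ran from 21370921 to 27553451 in the miR-29a libraries and from 24456059 to 29585294 in the control libraries. Ribosomal protein genes took 15.5% of the counts in the omitted miR-29a replicate 3, against 8.02% to 8.56% in the miR-29a libraries used and 9.04% to 9.57% in the control libraries. In replicate 3 the genes of the shortest decile by length lay a median of 0.59 (log2) above the mean of the miR-29a libraries used. Those of the longest decile lay below it (median deviation -0.58). No other library deviated by more than 0.10 in either decile from the mean of the other libraries of its own group, with replicate 3 left out. Of 20 preset markers of embryonic tissues 17 matched a gene in the table, and each of the 17 had at least 1 identifier with counts in all 7 libraries. For the rod photoreceptor marker rho only ENSDARG00000103574 did (lowest count 15), and its other identifiers had a lowest count of 0. The first principal component of the 7 libraries held 85.4% of the variance and separated the groups. In whole embryos, fewer cells of a type and less RNA per cell cannot be told apart.

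Most of the genes tested differed between miR-29a and control embryos. Of 20673 genes tested with edgeR's quasi-likelihood test, 11405 (55.2%) passed an adjusted p of 0.05 (Benjamini-Hochberg) and are named called genes here. The 5823 genes called higher were 28.2% of those tested, and the 5582 called lower were 27.0%. Every miR-29a library lay outside the range of the control libraries in 11640 genes (56.3%). Most changes were small. The median log2 fold change was 0.57 among the genes called higher and -0.42 among those called lower, and 0.01 over all genes tested. A rise of at least 2-fold was called in 1253 genes (6.06%) and a fall of at least 2-fold in 1028 genes (4.97%). Changes of at least 4-fold were called in 246 higher and 295 lower genes, and changes of at least 8-fold in 70 higher and 91 lower genes.

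The number of calls rests in part on the omitted library. With miR-29a replicate 3 added, 2629 genes were called higher and 1693 lower, and against a minimum change of 1.2-fold, without it, 3522 and 2734. Leaving out any 1 of the 7 libraries gave 5272 to 5725 higher and 5061 to 5478 lower genes. The direction of change depended on the level of the gene. In the lowest decile of genes by mean CPM (TMM-scaled read counts relative to library size), 20.1% were called higher and 16.3% lower, and in the highest decile 21.3% were higher and 51.7% lower, with a median log2 fold change of -0.14. Summed over the genes called lower the difference from control was -177350 CPM, and over the genes called higher it was 71983 CPM. The TMM factors were 1.056 to 1.068 in the miR-29a libraries used and 0.942 to 0.965 in the control libraries. Scaled CPM therefore do not add up to the same total in both groups. The summed differences, the shares called and the median of each decile depend on this scaling. Across deciles of gene length, the median log2 fold change stayed between -0.02 and 0.04.

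**Figure D1:**
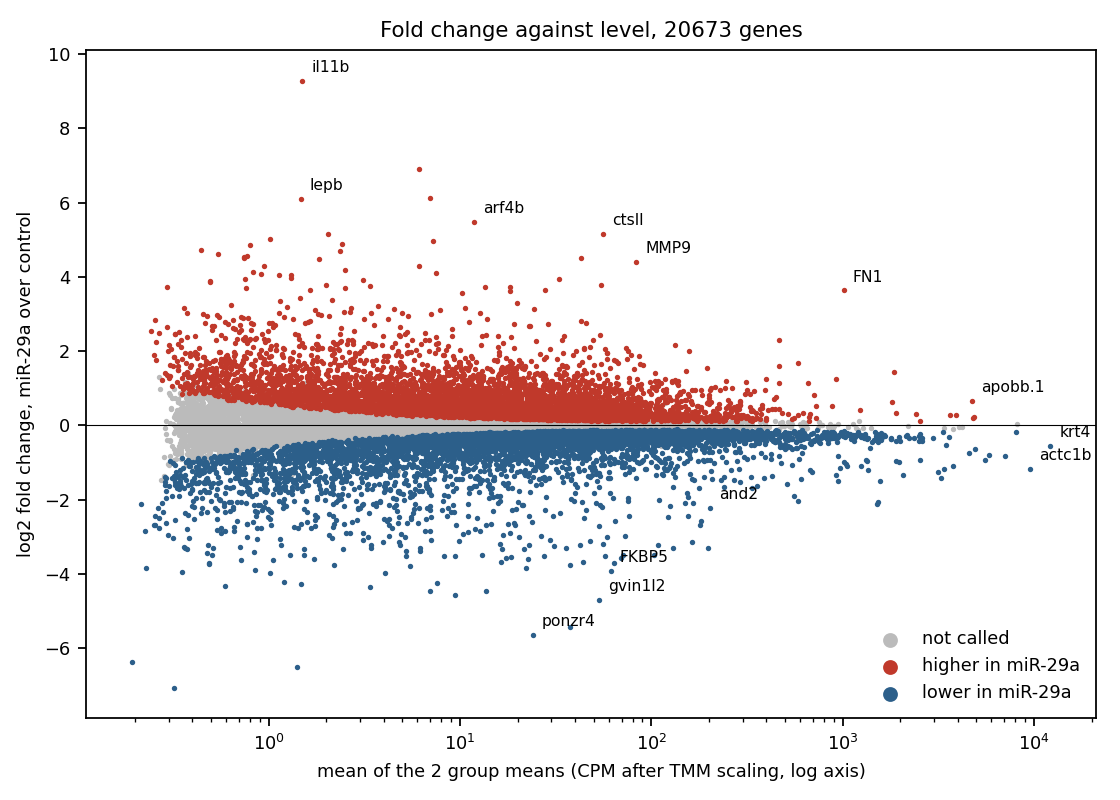
Log2 fold change of miR-29a over control embryos against the mean of both group means in CPM (log axis) for 20673 genes, with genes called higher in red, called lower in blue and not called in grey. The called genes lie on both sides at every level, blue points prevail at the right, and the labelled genes are described in the text (the fitted value of il11b depends on the prior count, since its control counts were 0).

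Of the 15 genes with the largest rises, 6 encode cytokines, chemokines or a hormone, 4 encode proteases and 5 have other roles. They are the largest rises among called genes that had a real symbol, averaged 1 CPM or more in miR-29a embryos and did not overlap between the groups, so the separation of the groups in each follows from how it was chosen. Symbols in capitals are those of human genes that the name table pairs with zebrafish identifiers. The interleukin 11 genes il11a and il11b encode cytokines that signal through gp130 and are known for their part in fin and heart regeneration in zebrafish. il11b had 3.16, 1.60 and 4.23 CPM in miR-29a libraries, against 0, 0, 0 and 0 CPM in control libraries. With no count in any control library, the rise was at least 106-fold, where the control level is set to the upper limit of 3 counts in the whole group. il11a had 1.54, 1.04 and 3.37 CPM in miR-29a libraries, against 0.0428, 0, 0.108 and 0.0789 CPM in control libraries (log2 fold change 5.02, SE 0.66, adjusted p = 8.72e-05), and without miR-29a replicate 4, the highest library, its log2 fold change was 4.36. lepb, one of the leptin genes of fish and a gene known to respond to tissue injury there, had 1.97, 2.52 and 4.23 CPM in miR-29a libraries, against 0.0428, 0, 0.0359 and 0.0789 CPM in control libraries (log2 fold change 6.09, SE 0.48, adjusted p = 6.74e-08). With miR-29a replicate 3 added, the log2 fold change of lepb was 7.15 (adjusted p = 0.00261). Each of these 3 genes was near its detection limit in control embryos and, among the libraries used, was highest in miR-29a replicate 4. In the omitted miR-29a replicate 3, with all 12 libraries scaled together, il11b stood at 12.7 CPM, lepb at 16.6 CPM and il11a at 2.28 CPM.

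The other signals among the 15 are an interleukin and a pair of chemokines. il1b, the cytokine interleukin 1 beta, had 10.6, 1.76 and 22.5 CPM in miR-29a libraries, against 0.386, 0.656, 0.718 and 0.592 CPM in control libraries, the widest spread among these rises (log2 fold change 4.29, SE 1.04, adjusted p = 0.0180). Its call did not hold with the replicate number as a block (adjusted p = 0.0514) or without any single control replicate (adjusted p from 0.0516 to 0.0525), and its log2 fold change was 3.34 without miR-29a replicate 4. The chemokine genes cxcl18b and ccl20a.3, whose products attract leukocytes, were steadier. cxcl18b had 18.3, 9.32 and 15.2 CPM in miR-29a libraries, against 0.728, 0.911, 0.898 and 0.710 CPM in control libraries (log2 fold change 4.12, SE 0.27, adjusted p = 9.92e-07), and ccl20a.3 had 0.834, 1.48 and 2.41 CPM in miR-29a libraries, against 0.0857, 0.0729, 0.0718 and 0.118 CPM in control libraries (log2 fold change 4.14, SE 0.45, adjusted p = 1.54e-06). Adding miR-29a replicate 3 brought the log2 fold changes of these chemokines to 5.06 and 5.0. ms4a17a.4, of a family of membrane proteins that cross the membrane 4 times, had 5.62, 2.28 and 4.09 CPM in miR-29a libraries, against 0.214, 0.0729, 0.108 and 0.0394 CPM in control libraries (log2 fold change 5.17, SE 0.44, adjusted p = 1.42e-06).

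Among the proteases, MMP9, a gelatinase that cleaves denatured collagen and collagen IV, had 204, 76.0 and 199.7 CPM in miR-29a libraries, against 6.51, 8.20, 7.61 and 7.73 CPM in control libraries (log2 fold change 4.41, SE 0.44, adjusted p = 4.85e-04). mmp13a, a collagenase, had 104, 26.0 and 117 CPM in miR-29a libraries, against 3.00, 3.90, 4.06 and 3.35 CPM in control libraries (log2 fold change 4.52, SE 0.66, adjusted p = 0.00243), and its log2 fold change was 5.26 once miR-29a replicate 3 was added. Both metalloprotease genes were lowest in miR-29a replicate 2 and still far above every control library there. ctsll, which encodes a cathepsin L-like protease, had 116, 86.3 and 125 CPM in miR-29a libraries, against 3.13, 2.77, 3.59 and 2.72 CPM in control libraries (log2 fold change 5.16, SE 0.16, adjusted p = 6.01e-08). HTRA3 (ENSDARG00000052895), named for a secreted serine protease, had 5.53, 4.84 and 3.72 CPM in miR-29a libraries, against 0.257, 0.109, 0.180 and 0.0789 CPM in control libraries (log2 fold change 4.88, SE 0.28, adjusted p = 5.97e-10). lamb3, a chain of the laminin that anchors epidermis to its basement membrane, had 2.28, 1.68 and 1.48 CPM in miR-29a libraries, against 0.129, 0.146, 0.0359 and 0.0394 CPM in control libraries (log2 fold change 4.30, SE 0.38, adjusted p = 9.00e-08). In the omitted miR-29a replicate 3, with all 12 libraries scaled together, lamb3 stood at 0.414 CPM, a count of 8. The log2 fold changes of these proteases and of lamb3, all 4.30 or more, follow from their choice among the largest rises.

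The remaining 3 of the 15 have more varied roles. arf4b, a small GTPase of vesicle transport, had 28.9, 17 and 23.7 CPM in miR-29a libraries, against 0.557, 0.692, 0.180 and 0.631 CPM in control libraries (log2 fold change 5.49, SE 0.31, adjusted p = 2.13e-06), so that the lowest miR-29a library was far above the highest control library. mxtx1, a homeobox gene of the zebrafish yolk syncytial layer, had 1.58, 1.04 and 1.65 CPM in miR-29a libraries, against 0.0428, 0.0729, 0.0359 and 0.0789 CPM in control libraries (log2 fold change 4.52, SE 0.39, adjusted p = 8.84e-08). plekhs1.1, which encodes a protein with a pleckstrin homology domain, had 1.23, 1.16 and 1.93 CPM in miR-29a libraries, against 0.0428, 0.0729, 0.0718 and 0.0394 CPM in control libraries (log2 fold change 4.55, SE 0.40, adjusted p = 1.08e-07). Of the 70 genes that rose at least 8-fold, 26 had no symbol or only a clone name, as had 19 of the 91 that fell at least 8-fold.

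**Figure D2:**
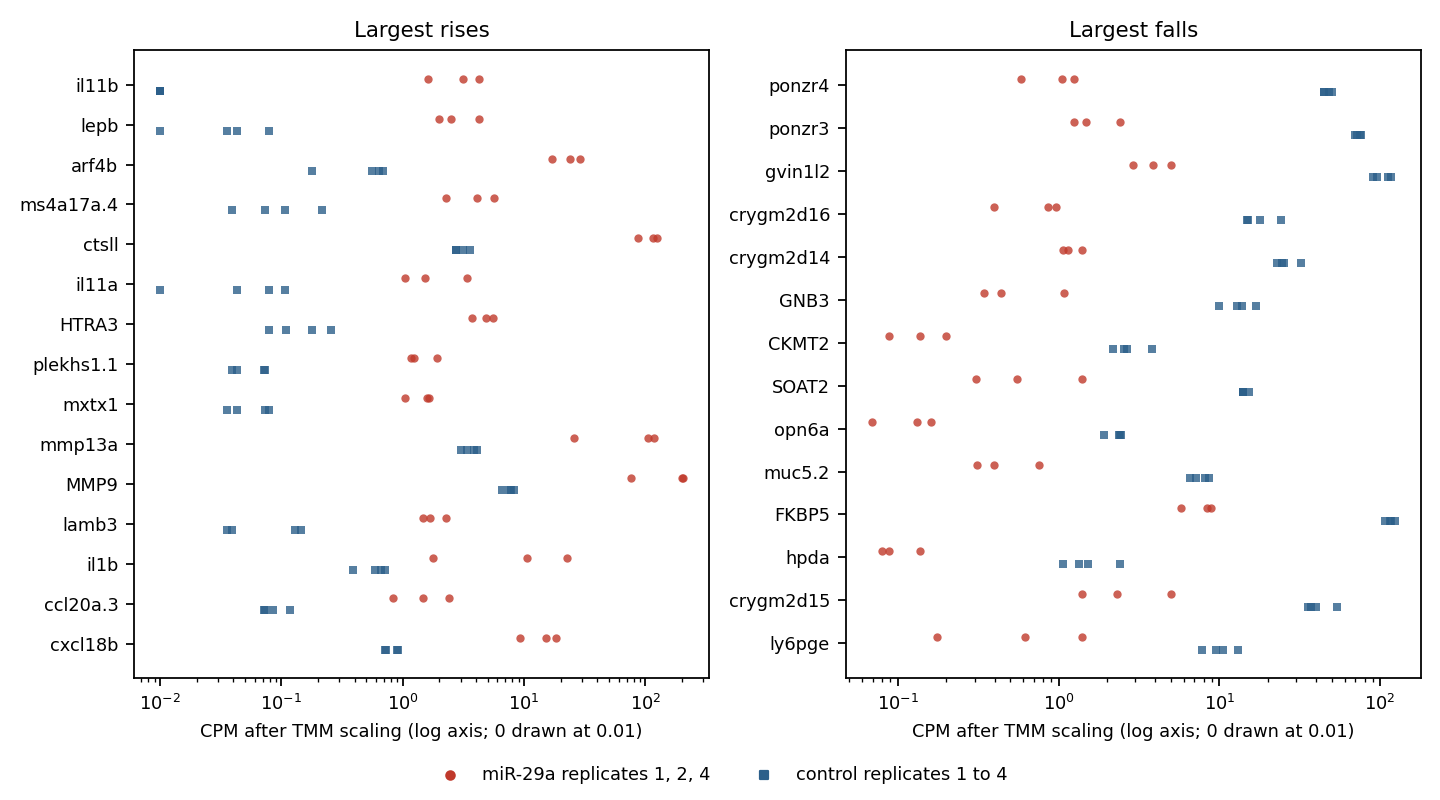
CPM (log axis, 0 drawn at 0.01) of each library for genes among the 15 largest rises and the 15 largest falls by the naming rule, with miR-29a replicates 1, 2 and 4 as red circles above control replicates 1 to 4 as blue squares. The groups do not overlap in any gene shown, which the rule required, and il1b has the widest spread among the rises.

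The largest falls include genes of photoreceptors and lens, both tissues of the eye. opn6a, an opsin gene, had 0.132, 0.160 and 0.0688 CPM in miR-29a libraries, against 2.4, 2.44, 1.90 and 2.37 CPM in control libraries (log2 fold change -4.22, SE 0.31, adjusted p = 1.22e-08). GNB3, named for the transducin beta subunit of cone photoreceptors, had 0.439, 1.08 and 0.344 CPM in miR-29a libraries, against 9.94, 12.9, 16.9 and 13.9 CPM in control libraries (log2 fold change -4.45, SE 0.33, adjusted p = 7.60e-06), and its log2 fold change was -5.11 without miR-29a replicate 2, the highest of its group. The crystallin genes crygm2d14, crygm2d15 and crygm2d16 encode structural proteins of the fish lens. crygm2d14 had 1.14, 1.4 and 1.07 CPM in miR-29a libraries, against 22.7, 25.3, 32.4 and 24.7 CPM in control libraries (log2 fold change -4.45, SE 0.16, adjusted p = 7.77e-11). crygm2d16 had 0.395, 0.960 and 0.860 CPM in miR-29a libraries, against 15.2, 17.9, 24.1 and 15 CPM in control libraries, and crygm2d15 had 1.4, 5.0 and 2.31 CPM in miR-29a libraries, against 37.0, 39.9, 54.2 and 35.4 CPM in control libraries. In each of these 5 eye genes the lowest control library was several times the highest miR-29a library. Close copies such as the crygm2d genes can share reads, so their single values are uncertain. Once miR-29a replicate 3 was added, the calls of GNB3 (adjusted p = 0.0918), crygm2d15 (0.0550) and crygm2d16 (0.0536) were lost, and the log2 fold change of crygm2d14 was -2.91.

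Other genes among the 15 largest falls included a pair of ponzr genes, a GTPase gene, a mucin gene and a Ly6 gene. ponzr4 had 1.05, 1.24 and 0.585 CPM in miR-29a libraries, against 44.4, 50.3, 44.8 and 48.4 CPM in control libraries (log2 fold change -5.64, SE 0.13, adjusted p = 1.15e-13), and ponzr3, a close copy, had 2.41, 1.24 and 1.48 CPM in miR-29a libraries, against 69.5, 75, 72.0 and 75.9 CPM in control libraries (log2 fold change -5.44, SE 0.12, adjusted p = 3.32e-13). The ponzr genes belong to a family related to mammalian onzin (PLAC8). gvin1l2, a member of the very large interferon-inducible GTPases, had 2.90, 3.84 and 4.99 CPM in miR-29a libraries, against 90.5, 116, 94.9 and 112 CPM in control libraries (log2 fold change -4.70, SE 0.18, adjusted p = 2.85e-07). Each of these 3 genes stood at or below 5 CPM in every miR-29a library and above 40 CPM in every control library. muc5.2, which encodes a gel-forming mucin, had 0.395, 0.760 and 0.310 CPM in miR-29a libraries, against 8.18, 7.18, 8.65 and 6.59 CPM in control libraries (log2 fold change -3.97, SE 0.22, adjusted p = 4.98e-10). ly6pge, named for the Ly6 proteins of the cell surface, had 0.175, 1.4 and 0.619 CPM in miR-29a libraries, against 7.80, 9.55, 13.1 and 10.5 CPM in control libraries (log2 fold change -3.78, SE 0.43, adjusted p = 2.68e-04), and its log2 fold change without miR-29a replicate 2 was -4.59. The addition of miR-29a replicate 3 left each of these calls in place, at log2 fold changes of -3.93 for ponzr4, -3.63 for ponzr3, -4.09 for gvin1l2, -3.05 for muc5.2 and -2.93 for ly6pge.

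FKBP5, a co-chaperone of steroid receptors that glucocorticoids are known to induce, had 8.91, 5.80 and 8.33 CPM in miR-29a libraries, against 117, 123, 107 and 116 CPM in control libraries (log2 fold change -3.91, SE 0.12, adjusted p = 8.02e-10). SOAT2, named for an enzyme that esterifies cholesterol, had 0.307, 1.4 and 0.550 CPM in miR-29a libraries, against 14.1, 13.9, 15.3 and 14.1 CPM in control libraries (log2 fold change -4.24, SE 0.25, adjusted p = 2.14e-07), and -5.01 without miR-29a replicate 2. Within each of these genes the miR-29a libraries varied more, in proportion, than the control libraries. hpda, an enzyme of tyrosine breakdown, had 0.0877, 0.0800 and 0.138 CPM in miR-29a libraries, against 1.07, 1.53, 2.41 and 1.34 CPM in control libraries (log2 fold change -3.89, SE 0.43, adjusted p = 1.27e-06). CKMT2 (ENSDARG00000069615), named for a mitochondrial creatine kinase of muscle, had 0.0877, 0.200 and 0.138 CPM in miR-29a libraries, against 2.18, 2.66, 3.81 and 2.56 CPM in control libraries (log2 fold change -4.26, SE 0.34, adjusted p = 2.63e-08). The call of CKMT2 was lost with miR-29a replicate 3 added (adjusted p = 0.143), and FKBP5, SOAT2 and hpda kept theirs at log2 fold changes of -3.15, -3.48 and -3.11.

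The smallest p-values picked out genes with tight replicates and smaller folds. Among those called higher were regulators of stress, cytokine signalling and lipid synthesis. cbx7a, a chromobox protein of Polycomb repression, had 35.5, 32.6 and 33.5 CPM in miR-29a libraries, against 2.78, 2.48, 2.23 and 2.68 CPM in control libraries (log2 fold change 3.74, SE 0.09, adjusted p = 7.00e-14). SOCS3, a feedback inhibitor of cytokine receptors that signal through STAT3, had 57.1, 55.5 and 58.2 CPM in miR-29a libraries, against 11.9, 10.9, 11.6 and 12.0 CPM in control libraries (log2 fold change 2.30, SE 0.06, adjusted p = 1.15e-13). DDIT3, the transcription factor CHOP of the unfolded protein response, had 62.2, 56.5 and 58.7 CPM in miR-29a libraries, against 10.2, 11.2, 11.2 and 11.7 CPM in control libraries (log2 fold change 2.42, SE 0.06, adjusted p = 1.38e-13). Among the libraries used, the groups lay far apart in all 3 genes, and the libraries within each group lay close together. In the omitted miR-29a replicate 3, with all 12 libraries scaled together, DDIT3 stood at 19.3 CPM, cbx7a at 39.5 CPM and SOCS3 at 65.1 CPM. Genes of lipid metabolism followed. FADS3, named for a fatty acid desaturase, had 60.3, 61.8 and 63.9 CPM in miR-29a libraries, against 3.81, 4.26, 4.81 and 3.04 CPM in control libraries (log2 fold change 3.95, SE 0.09, adjusted p = 1.15e-13), and CYP51A1, the lanosterol demethylase of sterol synthesis, had 49.7, 54.3 and 46.6 CPM in miR-29a libraries, against 6.90, 7.36, 8.51 and 7.26 CPM in control libraries (log2 fold change 2.74, SE 0.08, adjusted p = 2.85e-13). insig1, which retains the sterol sensor SCAP in the endoplasmic reticulum, had 64.8, 65.1 and 63.9 CPM in miR-29a libraries, against 15.4, 15.3, 16.8 and 16.3 CPM in control libraries (log2 fold change 2.02, SE 0.06, adjusted p = 2.39e-13). c6.2, a complement component, rose by 2.09 on the log2 scale (SE 0.06), plekhf1 by 3.72 (SE 0.11) and SLC16A9 (ENSDARG00000104687), named for a monocarboxylate transporter, by 2.12 (SE 0.06).

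Among those called lower, fin fold and skin genes led. and1 and and2 encode actinodins, the proteins of the actinotrichia that stiffen the fin folds of fish. and2 had 71.6, 76.8 and 68.5 CPM in miR-29a libraries, against 348, 331, 337 and 326 CPM in control libraries (log2 fold change -2.21, SE 0.05, adjusted p = 7.00e-14), and and1 had 113, 131 and 121 CPM in miR-29a libraries, against 355, 333, 329.8 and 336 CPM in control libraries (log2 fold change -1.47, SE 0.05, adjusted p = 5.38e-12). Both actinodin genes lay below control by 2-fold or more in every library, as did krt91, a keratin gene, with 174, 166 and 183 CPM in miR-29a libraries, against 497, 544, 569 and 544 CPM in control libraries (log2 fold change -1.63, SE 0.05, adjusted p = 1.5e-12). The call of krt91 was lost with miR-29a replicate 3 added (adjusted p = 0.104). fut9d, named for a fucosyltransferase, had 21.7, 22.9 and 21.7 CPM in miR-29a libraries, against 78.8, 75.6, 83.7 and 72.8 CPM in control libraries (log2 fold change -1.81, SE 0.06, adjusted p = 1.51e-12). nr1d2a, a nuclear receptor of the circadian clock, had 12.2, 12.4 and 12.2 CPM in miR-29a libraries, against 35.8, 38.1, 37.9 and 38.0 CPM in control libraries (log2 fold change -1.61, SE 0.06, adjusted p = 1.01e-11). CYP2R1, named for the vitamin D 25-hydroxylase, had 1.23, 1.32 and 1.89 CPM in miR-29a libraries, against 16.9, 18.3, 15.8 and 18.2 CPM in control libraries (log2 fold change -3.52, SE 0.13, adjusted p = 6.66e-12), the largest of these falls beside the ponzr genes. The long noncoding RNA linc-epb41l4a had 124, 145 and 131 CPM in miR-29a libraries, against 344, 356, 352 and 338 CPM in control libraries (log2 fold change -1.38, SE 0.05, adjusted p = 1.05e-11). PKM (ENSDARG00000099860), named for pyruvate kinase, the last enzyme of glycolysis, had 112, 114 and 112 CPM in miR-29a libraries, against 299.9, 291, 331 and 292 CPM in control libraries (log2 fold change -1.43, SE 0.05, adjusted p = 5.41e-12).

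CPM are TMM-scaled counts relative to library size and not absolute amounts. By difference in CPM, the 10 largest falls were those of 9 muscle genes and the keratin gene krt4. actc1b, an actin of heart and skeletal muscle, had 5142, 6239 and 6271 CPM in miR-29a libraries, against 13523, 12691, 14313 and 12629 CPM in control libraries (log2 fold change -1.18, SE 0.07, adjusted p = 2.36e-07). pvalb1, a parvalbumin that binds calcium in fast fibres, had 1545, 2258 and 1599 CPM in miR-29a libraries, against 4599.7, 4540.4, 5031 and 4872 CPM in control libraries (log2 fold change -1.4, SE 0.15, adjusted p = 4.19e-04). MYL1 (ENSDARG00000017441), a myosin light chain, had 1693, 2051 and 1862 CPM in miR-29a libraries, against 4336, 4253, 4928 and 4357 CPM in control libraries (log2 fold change -1.26, SE 0.07, adjusted p = 1.63e-08). In actc1b even the highest miR-29a library held less than the lowest control library by a factor of about 2. The myosin heavy chain gene myhz1.1 (-1.17), pvalb2 (-1.10), the tropomyosin gene tpma (-0.93), the calcium pump gene atp2a1 (-0.83), MYL11 (ENSDARG00000053254) (-0.79) and the creatine kinase gene ckma (-0.75) fell by similar log2 values, and members of the fast myosin family can share reads. krt4 of the epidermis had 9502, 10120.0 and 9939 CPM in miR-29a libraries, against 14364, 14993, 13764 and 14997 CPM in control libraries (log2 fold change -0.56, SE 0.04, adjusted p = 1.98e-08).

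These muscle falls rest on the 3 libraries used. In miR-29a replicate 3, with all 12 libraries scaled together, actc1b stood at 14043 CPM, pvalb1 at 6716 CPM and krt4 at 16319 CPM, at or above the control range of 12297 to 13981, 4432 to 4915 and 13445 to 14636 CPM on that scale. With that library added, the calls of actc1b, krt4, tpma, MYL11, pvalb1, pvalb2, MYL1 and ckma were lost (adjusted p from 0.149 to 0.428), and those of atp2a1 and myhz1.1 were kept. The call of atp2a1 was lost with the replicate number as a block (adjusted p = 0.0760). The 7 muscle genes that lost their call have gene lengths of 931 to 1584 bases, and atp2a1 and myhz1.1 of 4380 and 6006 bases. The part of gene length in the values of replicate 3 was not tested.

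The largest gains in CPM were genes of the yolk layer, the lysosome and the matrix protein fibronectin. apobb.1, the apolipoprotein B of yolk lipoproteins, had 5959, 4788 and 6739.6 CPM in miR-29a libraries, against 3805, 3904, 3159 and 3896 CPM in control libraries (log2 fold change 0.66, SE 0.14, adjusted p = 0.00724). FN1 (ENSDARG00000006526), which encodes the matrix protein fibronectin, had 1819.9, 1659 and 2169 CPM in miR-29a libraries, against 171, 150.0, 134 and 151 CPM in control libraries (log2 fold change 3.64, SE 0.12, adjusted p = 1.06e-07). ctsla, the lysosomal protease cathepsin L, had 3103, 2349.6 and 2745 CPM in miR-29a libraries, against 1032, 1047, 848 and 1083 CPM in control libraries (log2 fold change 1.45, SE 0.12, adjusted p = 4.67e-05). Fibronectin stood out in this group, with its lowest miR-29a library among those used nearly 10 times its highest control library. In the omitted miR-29a replicate 3, with all 12 libraries scaled together, FN1 stood at 648 CPM. On that scale the miR-29a libraries used held 1613 to 2109 CPM and the control libraries 131 to 167 CPM. The apolipoprotein gene apoeb had 2543, 1899.9 and 2149 CPM in miR-29a libraries, against 1418, 1451, 1281 and 1513 CPM in control libraries (log2 fold change 0.63, SE 0.10, adjusted p = 8.03e-04), and PSAP, the precursor of the saposins that activate lysosomal lipid hydrolases, had 1481, 1167 and 1270.0 CPM in miR-29a libraries, against 574, 534, 538 and 548 CPM in control libraries (log2 fold change 1.25, SE 0.07, adjusted p = 6.00e-09). SLC43A2 (ENSDARG00000061120), named for an amino acid transporter, had 933, 623 and 769 CPM in miR-29a libraries, against 157, 163, 133 and 175 CPM in control libraries (log2 fold change 2.30, SE 0.17, adjusted p = 7.19e-05). The apolipoprotein genes apoa1a (0.27) and apoa1b (0.28) and the cytoplasmic actin genes actb1 (0.22) and actb2 (0.20) rose by small log2 values, and none of these 4 was called against a minimum change of 1.2-fold (adjusted p from 0.412 to 0.964). When miR-29a replicate 3 was added, these 4 and apobb.1 (adjusted p = 0.0527) were not called.

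**Figure D3:**
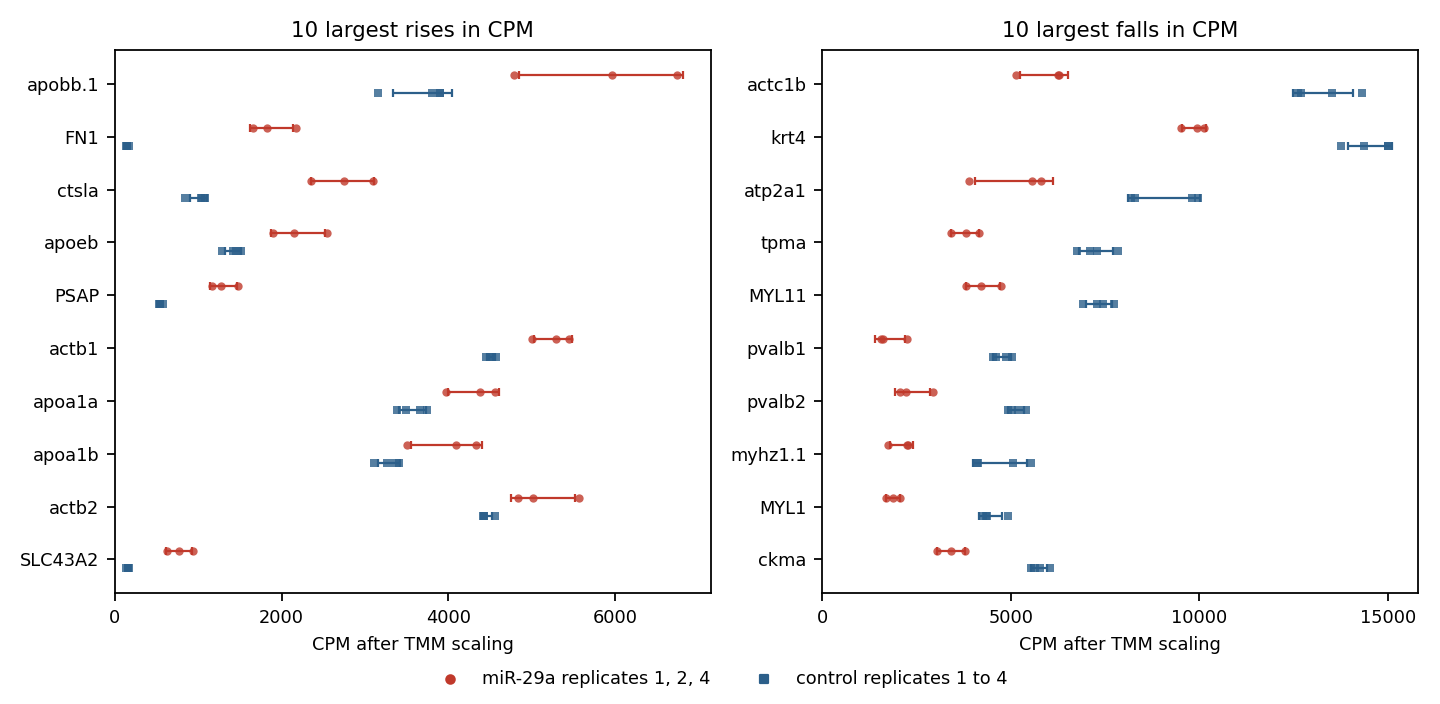
CPM of each library for the 10 largest rises and 10 largest falls in mean CPM by the naming rule, with miR-29a replicates 1, 2 and 4 as red circles above control replicates 1 to 4 as blue squares, and bars of 1 SD about the mean. Muscle genes and krt4 make up the falls, and the groups are separate in every gene shown, which the rule required.

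Gene families defined only by a shared symbol stem gave a view that needed no list. Of 259 stems with at least 10 genes tested, 121 had more members called higher than lower and 126 the reverse. Among the 10 stems with the largest share called higher were 4 that hold immune or related genes, btr, ftr, mhc and ms4a. Of 15 btr genes, bloodthirsty-related members of the TRIM family that expanded in fish, 14 rose, with a median log2 fold change of 1.14. Of 33 ftr genes, fish-specific TRIM genes that respond to viruses, 23 rose and ftr99 fell. Of 15 mhc genes, which encode histocompatibility proteins, 12 rose. mhc1zba had 31.3, 28.8 and 23.9 CPM in miR-29a libraries, against 9.90, 8.82, 10.5 and 10.3 CPM in control libraries (log2 fold change 1.5, SE 0.09, adjusted p = 2.70e-09), and btr02 had 13.5, 12.0 and 11.9 CPM in miR-29a libraries, against 6.55, 6.38, 7.18 and 7.53 CPM in control libraries (log2 fold change 0.85, SE 0.09, adjusted p = 1.4e-06). Of 12 ms4a genes 8 rose, each of them an ms4a17a copy. None of the btr, mhc or ms4a members was called lower, and the addition of miR-29a replicate 3 left 14 ftr and 6 mhc genes called higher. Genes of these 4 families lie in close copies, and reads shared between copies make single members uncertain.

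Families of cell death and membrane traffic rose as well. Of 14 casp genes, which encode the caspases of apoptosis and related proteins, 11 rose, with a median of 0.73. casp8, the initiator of receptor-driven apoptosis, had 15.4, 13.5 and 12.4 CPM in miR-29a libraries, against 7.58, 7.69, 6.32 and 6.31 CPM in control libraries (log2 fold change 0.97, SE 0.10, adjusted p = 9.48e-07), and casp6b.1 had 4.83, 5.04 and 5.44 CPM in miR-29a libraries, against 1.29, 1.24, 1.33 and 0.828 CPM in control libraries (log2 fold change 2.12, SE 0.16, adjusted p = 1.97e-08). Of the 2 members that fell, casp8ap2, a caspase 8 associated protein, stood at -0.18. Of 13 chmp genes, subunits of the ESCRT-III complex that cuts membrane necks, 10 rose and none fell (median 0.51), with chmp5b at 0.77 and CHMP2B (ENSDARG00000002190) at 0.71. Of 17 anxa genes, the annexins that bind membranes in the presence of calcium, 12 rose, among them anxa1c (1.15) and ANXA1 (0.94), whereas ANXA6 (-0.43), anxa5a (-0.79) and anxa1b (-1.56) fell. Of 20 dhrs genes, short-chain dehydrogenases that include retinol-metabolising enzymes, 15 rose and DHRS7C (ENSDARG00000071877) fell by 0.82.

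Among the families that rose were also those of motile cilia and of germ cells. Of 12 dnah genes, the heavy chains of the dynein motors that bend cilia, 10 rose and none fell (median 0.76). dnah5l had 18.4, 19.6 and 16.1 CPM in miR-29a libraries, against 10.4, 10.3, 10.4 and 10.1 CPM in control libraries (log2 fold change 0.80, SE 0.08, adjusted p = 6.10e-07), and DNAH7 had 11.3, 8.68 and 11 CPM in miR-29a libraries, against 5.44, 4.96, 4.67 and 4.73 CPM in control libraries (log2 fold change 1.06, SE 0.11, adjusted p = 8.32e-07). No dnah gene was called with miR-29a replicate 3 added (adjusted p = 0.128 for dnah5l and 0.0709 for DNAH7). The part of gene length in the loss of these calls was not tested. Of 10 tdrd genes, whose Tudor domain proteins build the germ granules that guard against transposons, 8 rose and none fell (median 1.10). tdrd12 had 5.09, 4.92 and 4.64 CPM in miR-29a libraries, against 0.471, 0.583, 0.574 and 0.513 CPM in control libraries (log2 fold change 3.17, SE 0.17, adjusted p = 3.63e-10), and TDRD6 had 7.46, 8.16 and 6.40 CPM in miR-29a libraries, against 2.4, 2.70, 2.66 and 2.49 CPM in control libraries (log2 fold change 1.51, SE 0.13, adjusted p = 5.72e-08). tdrd6b (2.77), tdrd5 (2.07) and tdrd15 (1.77) rose too, named here after their values were seen, and 5 tdrd genes were called higher with miR-29a replicate 3 added.

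Among the stems with the largest share called lower, every member fell in crygm and ndufb. The 18 crygm genes tested encode lens crystallins and fell with a median log2 fold change of -3.52. Of 12 genes with the symbol stem of SIX3, SIX6 and six7, homeobox factors of eye, ear and muscle precursors, 11 fell and none rose (median -0.54). SIX3 (ENSDARG00000058008), a factor of forebrain and eye, had 12.7, 15.2 and 15 CPM in miR-29a libraries, against 27.1, 26.5, 28.1 and 26.9 CPM in control libraries (log2 fold change -0.92, SE 0.07, adjusted p = 3.28e-08). Its copy ENSDARG00000054879 had 16.9, 21.0 and 18.6 CPM in miR-29a libraries, against 29.6, 32.7, 33.1 and 32.0 CPM in control libraries (log2 fold change -0.76, SE 0.08, adjusted p = 4.06e-07). The steepest falls of the family, picked after their values were seen, were six7 (-2.99), a regulator of cone opsins, and both SIX6 identifiers (-2.65 and -1.69). In the fit with miR-29a replicate 3, 9 crygm genes and 3 genes of the SIX3 stem were called lower.

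Of 55 col genes, the collagens, 42 fell, and this family is the one for which miR-29 is best known. The median log2 fold change was -0.90. col28a1a had 2.63, 4.36 and 3.23 CPM in miR-29a libraries, against 20.6, 18.6, 19.1 and 16.3 CPM in control libraries (log2 fold change -2.45, SE 0.14, adjusted p = 1.47e-09), and col4a3, a chain of basement membrane collagen, had 2.06, 3.16 and 3.06 CPM in miR-29a libraries, against 13.3, 14.1, 13.2 and 13.0 CPM in control libraries (log2 fold change -2.27, SE 0.12, adjusted p = 4.11e-10). The 4 that rose were col28a1b (0.96), COL14A1 (ENSDARG00000005762, 0.21), COL12A1 (ENSDARG00000019601, 0.19) and col17a1b (0.17). With a correction for gene length in the 7 libraries used, 2 col genes were called higher and 43 lower. Against a minimum change of 1.2-fold, 1 was higher and 38 lower. Of all families with a large share called lower, the collagens lost few calls when miR-29a replicate 3 was added, with 36 lower and 0 higher. In that library the genes of the longest decile by length lay low (median log2 deviation -0.58) and those of the shortest high (0.59). The part of gene length in the calls kept or lost was not tested. Of 17 krt genes 13 fell, with krt1-c5 at -1.44 (SE 0.09), and the simple epithelial keratins krt18a.1 (0.78) and krt18b (1.03) rose. Only 2 krt genes were called lower with that library added.

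The other stems in this group belong to machinery that every cell uses, and their changes were small. Medians of this size depend on the TMM scaling, with factors of 1.056 to 1.068 in the miR-29a libraries used and 0.942 to 0.965 in control libraries. As a share of unscaled counts, ribosomal protein genes took 8.02% to 8.56% in those miR-29a libraries and 9.04% to 9.57% in control libraries. Of 43 rpl genes, the proteins of the large ribosomal subunit, 41 fell and none rose, with a median of -0.29. RPL12 had 1224, 1293 and 1279 CPM in miR-29a libraries, against 1654, 1589, 1652 and 1693 CPM in control libraries (log2 fold change -0.38, SE 0.04, adjusted p = 1.29e-06). Of 48 rps genes 36 fell, among them RPS12 (-0.47) and rps27.1 (-0.45). The 4 that rose were 3 kinases that share the stem, rps6kb1a (0.77), RPS6KA1 (0.29) and RPS6KA3 (0.48), and rps27l (1.03). All 11 ndufb genes, subunits of respiratory complex I, fell, with NDUFB11 at -0.40 (SE 0.06). Of 21 nup genes of the nuclear pore 16 fell, of 16 ints genes of the Integrator complex 12 fell, and of 21 kdm genes, the histone lysine demethylases, 16 fell and kdm4aa rose (0.23). With a correction for gene length in the 7 libraries used, 41 rpl, 36 rps and 10 ndufb genes were called lower. The correction was not applied to the fit with replicate 3. When miR-29a replicate 3 was added, none of the rpl, rps or ndufb genes was called lower, and 3 nup, 2 ints and 7 kdm genes were. The genes RPL12, RPL24, RPS12 and rps27.1 have lengths of 1542, 1723, 628 and 588 bases, and the part of gene length in the values of replicate 3 was not tested.

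**Figure D4:**
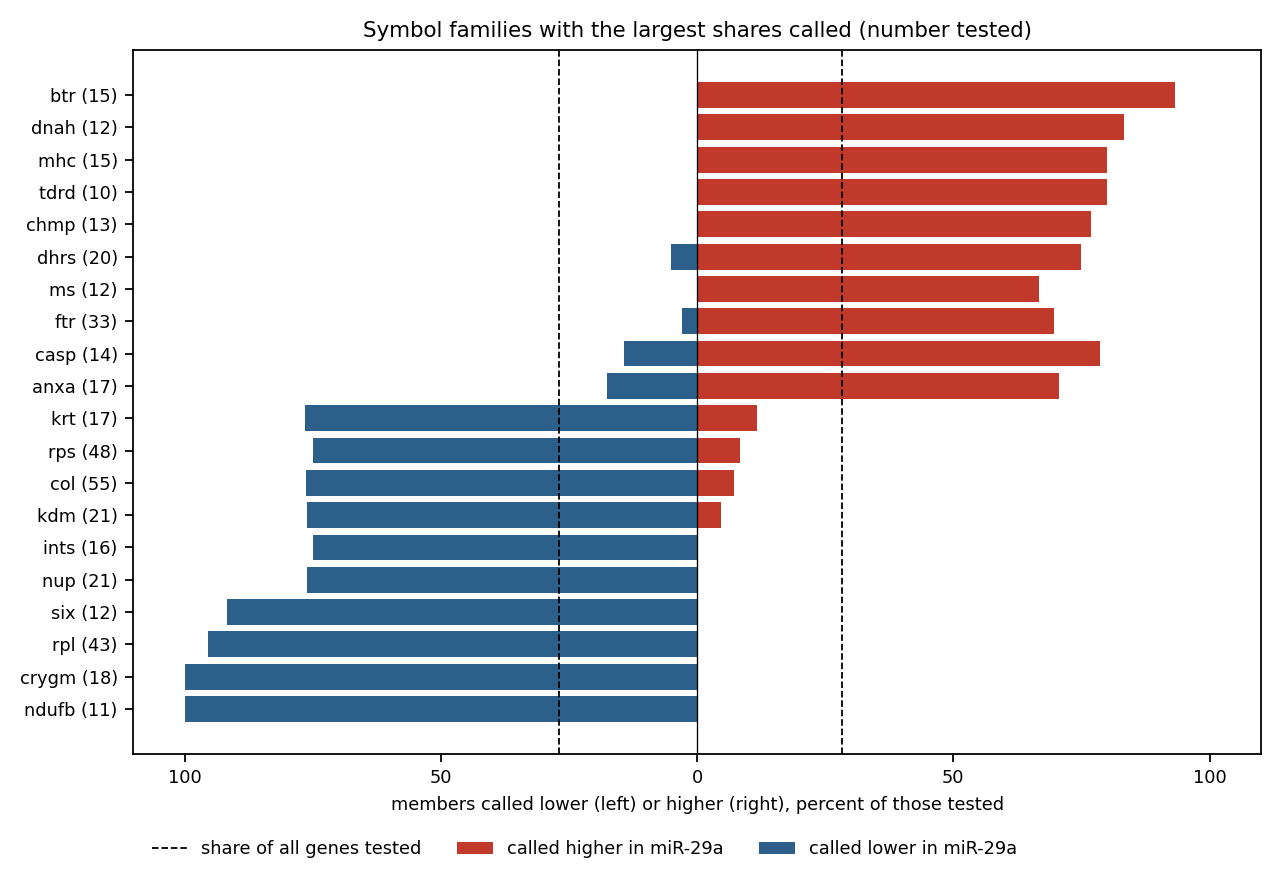
Percent of the tested genes of each symbol family called higher (red, right) or lower (blue, left) in miR-29a embryos, with the number tested in brackets and dashed lines at the shares of all genes tested (28.2% and 27.0%). The 20 families shown are those with the largest share called in either direction, so their distance from the dashed lines follows from how they were chosen.

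Preset gene lists for pathways and tissues were then read against the same background of 28.2% higher and 27.0% lower. Many of these counts rest on the omitted library, since adding miR-29a replicate 3 moved 72 of 98 list and family counts by over 1.5 times. Lists of stress signalling and degradation lay mostly on the higher side. In the list of NF-κB and Tnf signalling, the pathway from cytokine receptors to inflammatory transcription, 24 of 33 genes tested rose and 3 fell, with a median log2 fold change of 0.52. bcl3, a nuclear cofactor of NF-κB, had 5.97, 4.88 and 8.08 CPM in miR-29a libraries, against 0.428, 0.437, 0.431 and 0.552 CPM in control libraries (log2 fold change 3.77, SE 0.22, adjusted p = 7.56e-10). nfkb2, which encodes the p100 precursor, had 39.5, 35.5 and 41.7 CPM in miR-29a libraries, against 19.6, 19.0, 18.7 and 17.8 CPM in control libraries (log2 fold change 1.05, SE 0.07, adjusted p = 2.50e-09). The receptors tnfrsf1a (1.53) and tnfrsf1b (1.18) were also higher. The 3 that fell were REL (-0.68), the inhibitor gene nfkbiab (-0.64) and BIRC2 (-0.14). In the list of immediate early and AP-1 factors, 17 of 36 rose and 8 fell (median 0.31). JUNB (ENSDARG00000104773) had 83.8, 87.2 and 103 CPM in miR-29a libraries, against 16.2, 17.7, 15.9 and 17.6 CPM in control libraries (log2 fold change 2.44, SE 0.07, adjusted p = 6.09e-13), and CEBPB had 84.0, 77.3 and 86.8 CPM in miR-29a libraries, against 25.8, 25.1, 27.2 and 26.2 CPM in control libraries (log2 fold change 1.67, SE 0.06, adjusted p = 1.51e-12). DUSP1, a phosphatase that dampens MAP kinases, fell by 0.75, and klf2a, a gene that blood flow is known to induce in endothelium, by 1.16. Adding miR-29a replicate 3 left 11 genes of the NF-κB list called higher and 1 lower.

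Autophagy, the delivery of cell contents to the lysosome, moved almost wholly one way. Of 43 genes tested 29 rose and 1 fell, with a median of 0.34. OPTN, a receptor that links cargo to the autophagosome, had 48.8, 43.3 and 51.9 CPM in miR-29a libraries, against 22.1, 22.7, 21.5 and 22.0 CPM in control libraries (log2 fold change 1.12, SE 0.07, adjusted p = 8.76e-10). gabarapa, a protein conjugated to the autophagosome membrane, had 109, 103 and 95.8 CPM in miR-29a libraries, against 58.9, 60.5, 62.6 and 63.2 CPM in control libraries (log2 fold change 0.74, SE 0.05, adjusted p = 9.04e-09). SQSTM1, the cargo receptor p62, showed the largest rise of the list (98.2 ± 13.5 CPM in miR-29a embryos and 29.1 ± 2.55 CPM in control embryos, SD, n = 3 and 4; log2 fold change 1.75). The single fall, atg9b (-0.21), lost its call without either control replicate 2 or 4 (adjusted p = 0.0654 and 0.102) or miR-29a replicate 1 or 4 (adjusted p = 0.0527 and 0.0965). Of 28 genes of oxidative stress and glutathione, 15 rose and 5 fell (median 0.21). gpx4a, a peroxidase of membrane lipids, had 299, 245 and 260.0 CPM in miR-29a libraries, against 146, 134, 139 and 137 CPM in control libraries (log2 fold change 0.94, SE 0.06, adjusted p = 4.06e-09), and HMOX1, heme oxygenase, rose by 1.02. slc7a11, the cystine importer that feeds glutathione synthesis, fell by 1.62 (SE 0.25), as did PRDX4 by 0.35, GCLM by 0.25, gstp1.2 by 0.33 and prdx1 (ENSDARG00000058734) by 0.19. With replicate 3 added, 13 autophagy genes were called higher and none lower, and the log2 fold change of PRDX4 became 0.07 (adjusted p = 0.896).

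Splicing factors, chromatin genes and translation factors lay on the lower side. Of 54 splicing factors tested 40 fell and 2 rose, with a median of -0.22. HNRNPU (ENSDARG00000004735) had 471, 477 and 507 CPM in miR-29a libraries, against 673, 649, 680.0 and 651 CPM in control libraries (log2 fold change -0.45, SE 0.04, adjusted p = 3.22e-07), and HNRNPL had 348, 334 and 319 CPM in miR-29a libraries, against 439.8, 435, 449.6 and 433 CPM in control libraries (log2 fold change -0.40, SE 0.04, adjusted p = 1.45e-06). The pair that rose was SRSF7 (ENSDARG00000101057, 0.52) and PTBP1 (ENSDARG00000019362, 0.12), and the call of PTBP1 was lost in 13 of the alternatives, among them median-ratio scaling (adjusted p = 0.0501). Of 81 chromatin remodellers and histone modifiers, 50 fell and 8 rose (median -0.20). kdm6bb, a demethylase that removes the Polycomb mark, had 92.4, 100.2 and 100.5 CPM in miR-29a libraries, against 178, 189, 167 and 189.8 CPM in control libraries (log2 fold change -0.89, SE 0.06, adjusted p = 2.02e-09). NSD1, a histone methyltransferase, was among those that rose (1.05, SE 0.11). Of 55 translation factors 28 fell and 10 rose (median -0.18), with PABPC4 at -0.50 and EIF4EBP3 (ENSDARG00000041607), a repressor of cap-dependent translation, at 0.70. Of 38 genes of ribosome biogenesis 11 (28.9%) fell, a share near that of all genes, including npm1b (-0.56), and utp3 (0.19) rose with overlapping groups and a call that ended in 10 alternatives. Of 18 aminoacyl-tRNA synthetases, 7 rose and 3 fell (median 0.06). In the fit with miR-29a replicate 3, 2 splicing factors and 8 chromatin genes were called lower. Against a minimum change of 1.2-fold, 4 splicing factors, 14 chromatin genes and 7 translation factors were called lower, and 1, 5 and 2 higher. In the highest decile of all genes by mean CPM 51.7% were called lower, a share near that of the translation factors (50.9%). The lists were not set against genes of similar level. Medians as small as those of these lists also depend on the TMM scaling.

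Glycolysis lay on the lower side. Of 28 genes tested 16 fell and 7 rose, with a median of -0.29. The falls included PGAM2, the muscle form of phosphoglycerate mutase, which had 57.6, 65.5 and 58.9 CPM in miR-29a libraries, against 118, 115, 123 and 115 CPM in control libraries (log2 fold change -0.95, SE 0.06, adjusted p = 7.79e-10). The rises included HK2, an inducible hexokinase, which had 23.5, 19.9 and 22.8 CPM in miR-29a libraries, against 12.0, 10.9, 11 and 11.4 CPM in control libraries (log2 fold change 0.97, SE 0.08, adjusted p = 4.95e-08). With replicate 3 added, 5 genes of glycolysis were called lower and 3 higher. Of 27 genes of fatty acid oxidation, 10 fell and 5 rose (median -0.10). CPT1B, the carnitine transferase of muscle mitochondria, had 3.69, 5.08 and 3.10 CPM in miR-29a libraries, against 10.6, 9.77, 12.8 and 9.94 CPM in control libraries (log2 fold change -1.45, SE 0.15, adjusted p = 1.99e-06). Those that rose included EHHADH (0.82) and ACAA1 (0.59), which act in peroxisomes, with CPT2 (0.20) and the receptor gene PPARA (ENSDARG00000054323, 0.55). Of 29 genes of the hypoxia response, 8 rose (27.6%) and 11 fell (37.9%), with a median of -0.03. EGLN3 stood at 1.14, IGFBP1 at 1.12 and EGLN1 (ENSDARG00000004632) at -0.82. Of 47 genes of the insulin and Igf pathway, 13 rose (27.7%) and 18 fell (38.3%), with a median of -0.06. SESN1 stood at 1.22 and PIK3R1, the regulatory subunit of PI3 kinase, at -0.70. In both the hypoxia and the insulin list the share called higher was near that of all genes tested.

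Among developmental signals, 12 of 27 Fgf pathway genes tested fell and 2 rose, with a median of -0.19. FGF8 (ENSDARG00000003399) had 2.19, 2.28 and 2.51 CPM in miR-29a libraries, against 5.65, 4.74, 4.95 and 4.50 CPM in control libraries (log2 fold change -1.08, SE 0.14, adjusted p = 6.52e-06), and FGF3 had 3.99, 5.4 and 4.89 CPM in miR-29a libraries, against 8.01, 8.16, 7.47 and 8.28 CPM in control libraries (log2 fold change -0.74, SE 0.12, adjusted p = 4.69e-05). The 2 that rose were fgf17 (1.56, SE 0.21) and the receptor gene fgfr4 (0.32), which was not called against a minimum change of 1.2-fold (adjusted p = 0.103). Once miR-29a replicate 3 was added, 3 genes of the list were called lower and 1 higher, and FGF3 was not called (adjusted p = 0.162). In the Bmp and Tgf-beta pathway 9 of 50 rose and 18 fell (median -0.08). TGFBR2 (ENSDARG00000059363), a Tgf-beta receptor, had 17, 13.9 and 14.8 CPM in miR-29a libraries, against 2.96, 3.06, 2.58 and 2.92 CPM in control libraries (log2 fold change 2.4, SE 0.11, adjusted p = 4.84e-11). SMAD3 (ENSDARG00000010207), a transducer of that receptor, fell by 0.46.

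In the Wnt pathway 10 of 48 genes rose and 10 fell (20.8% each, median -0.09), shares below those of all genes tested. Among its called members were the secreted inhibitor gene SFRP2 at 1.32 and the ligand gene WNT3A at 1.01. The receptor gene FZD5, which acts in the eye field, stood at -1.19. In the Hedgehog pathway 7 of 17 rose (41.2%) and 5 fell (29.4%, near the share of all genes tested), with a median of 0.11. The 5 were the ligand gene SHH (ENSDARG00000038867, -1.16), nkx2.2b (-0.53), PTCH1 (-0.45), SMO (-0.42) and GLI1 (-0.24), and the ligand gene ihhb rose (6.32, 7.24 and 6.02 CPM in miR-29a libraries, against 2.10, 1.57, 1.69 and 1.81 CPM in control libraries). In the retinoic acid pathway 10 of 26 rose and 10 fell (median -0.08), with the synthesis gene ALDH1A2 at 0.98, the degradation gene CYP26A1 at 0.94 and rxrga at -1.11. Of 75 genes of axon guidance 32 fell and 10 rose (median -0.12), with EPHB2 (ENSDARG00000037373) at -1.17, SEMA3D at -0.70 and plxnd1, a semaphorin receptor of vessels, at 0.98. Once miR-29a replicate 3 was added, the calls of ihhb, PTCH1, WNT3A, EPHB2 and plxnd1 were lost (adjusted p from 0.0632 to 0.470).

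Of 69 matrix proteins and proteoglycans other than collagens, 38 fell and 10 rose, with a median of -0.42. tnn, the tenascin gene tenascin N, had 357, 333 and 371 CPM in miR-29a libraries, against 783, 714, 730.3 and 714 CPM in control libraries (log2 fold change -1.06, SE 0.05, adjusted p = 1.08e-10). KERA, the proteoglycan keratocan of cornea and connective tissue, had 30.5, 22.9 and 29.1 CPM in miR-29a libraries, against 78.4, 73.6, 79.7 and 75.5 CPM in control libraries (log2 fold change -1.48, SE 0.08, adjusted p = 3.70e-09). Among the rises was THBS3 (ENSDARG00000077641), a thrombospondin, with 16.8, 15.8 and 17.3 CPM in miR-29a libraries, against 5.70, 4.85, 6.07 and 5.60 CPM in control libraries (log2 fold change 1.58, SE 0.09, adjusted p = 8.77e-10). Of 42 claudins, connexins and tight junction genes, 19 rose and 9 fell (median 0.12). cldne had 128, 105 and 122 CPM in miR-29a libraries, against 50.4, 49.9, 49.9 and 48.2 CPM in control libraries (log2 fold change 1.26, SE 0.06, adjusted p = 1.09e-10), and oclna, the junction protein occludin, had 82.1, 76.7 and 77.0 CPM in miR-29a libraries, against 41.3, 39.0, 43.0 and 41.2 CPM in control libraries (log2 fold change 0.93, SE 0.05, adjusted p = 5.53e-10). The claudin gene of vessels and brain, CLDN5 (ENSDARG00000014059), fell by 0.94.

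Of 36 ADAM, ADAMTS and TIMP genes, proteases of the cell surface and matrix and their inhibitors, 15 rose and 15 fell, so the median of -0.06 hid changes both ways. adam8b had 13.7, 12.6 and 12.5 CPM in miR-29a libraries, against 3.34, 3.61, 3.70 and 3.16 CPM in control libraries (log2 fold change 1.90, SE 0.10, adjusted p = 2.87e-10), and TIMP2 (ENSDARG00000061226) had 78.6, 78.8 and 70.0 CPM in miR-29a libraries, against 35.5, 37.9, 36.5 and 37.9 CPM in control libraries (log2 fold change 1.04, SE 0.06, adjusted p = 4.07e-10). ADAMTS17 fell by 1.01 and ADAMTS18 by 0.55. Of 57 genes of the actin cytoskeleton 27 rose and 16 fell (median 0.11), with the severing protein gene GSN (ENSDARG00000011459) at 1.21 and ARPC1B, a subunit of the Arp2/3 complex, at -0.99. After miR-29a replicate 3 was added, 13 actin genes were called higher and 1 lower. In the list of annexins, galectins and transglutaminases, 20 of 37 rose and 9 fell (median 0.23), led by s100a10b (1.16), a partner of annexin A2.

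Lists of single tissues were mixed. The largest shares called lower were those of the inner ear (52.5%) and of ionocytes and mucous cells (47.8%). In the latter list 26.1% were called higher, near the 28.2% of all genes tested. Of 40 genes of the inner ear and hair cells 21 fell and 7 rose, with a median of -0.31. TECTB, a protein of the membranes over hair cells, had 2.59, 2.68 and 2.37 CPM in miR-29a libraries, against 11.2, 12.2, 11.9 and 10.7 CPM in control libraries (log2 fold change -2.18, SE 0.11, adjusted p = 2.01e-10). USH1C, the hair bundle protein harmonin, which is also made in other epithelia, rose instead and had 11.7, 12.3 and 10.6 CPM in miR-29a libraries, against 2.18, 2.22, 2.69 and 2.25 CPM in control libraries (log2 fold change 2.29, SE 0.12, adjusted p = 1.70e-10). Of 23 genes of ionocytes and mucous cells, the cells of the skin that handle salts or secrete mucus, 11 fell and 6 rose (median -0.32). SLC4A1 (ENSDARG00000012881), a list member named for an anion exchanger of red cells, had 172, 168 and 156 CPM in miR-29a libraries, against 342, 336, 287 and 335 CPM in control libraries (log2 fold change -0.98, SE 0.06, adjusted p = 3.56e-09). Its fall can therefore not be assigned to ionocytes. The ionocyte factor foxi1 rose by 0.82. The largest fall of that list, seen after the fact, was RHCG (-3.31), named for an ammonia channel.

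Of 46 genes of cilia and the axoneme 17 rose and 5 fell (median 0.19). FOXJ1, the master regulator of motile cilia, had 26.5, 27.4 and 26.6 CPM in miR-29a libraries, against 10.5, 9.84, 11 and 10.1 CPM in control libraries (log2 fold change 1.37, SE 0.07, adjusted p = 2.05e-10). The 5 that fell were spag1a (-0.86), foxj1b (-0.62) and the intraflagellar transport genes IFT20 (-0.38), IFT52 (-0.26) and IFT172 (-0.17). Of 30 genes of the pronephros, the embryonic kidney, 10 rose (33.3%) and 7 fell (23.3%), shares near those of all genes tested (median 0.00). CDH17, a cadherin of its tubules, had 126, 117 and 119.5 CPM in miR-29a libraries, against 56.6, 52.8, 58.6 and 56.0 CPM in control libraries (log2 fold change 1.11, SE 0.05, adjusted p = 5.57e-11). SLC20A1 (ENSDARG00000020114), a phosphate transporter, fell by 1.61, and clcnk, a kidney chloride channel, by 1.54, or by 2.24 without miR-29a replicate 2 (log2 fold change -2.24). Of 23 intestine genes 5 rose (21.7%) and 7 fell (30.4%), also near those shares (median -0.02). FABP2, the fatty acid binding protein of enterocytes, had 12.0, 19.0 and 18.9 CPM in miR-29a libraries, against 67.7, 71.6, 66.1 and 74.1 CPM in control libraries (log2 fold change -2.06, SE 0.15, adjusted p = 9.30e-06), and the call was lost with replicate 3 added (adjusted p = 0.156). GATA6, a factor of endoderm and heart, rose by 0.85.

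**Figure D5:**
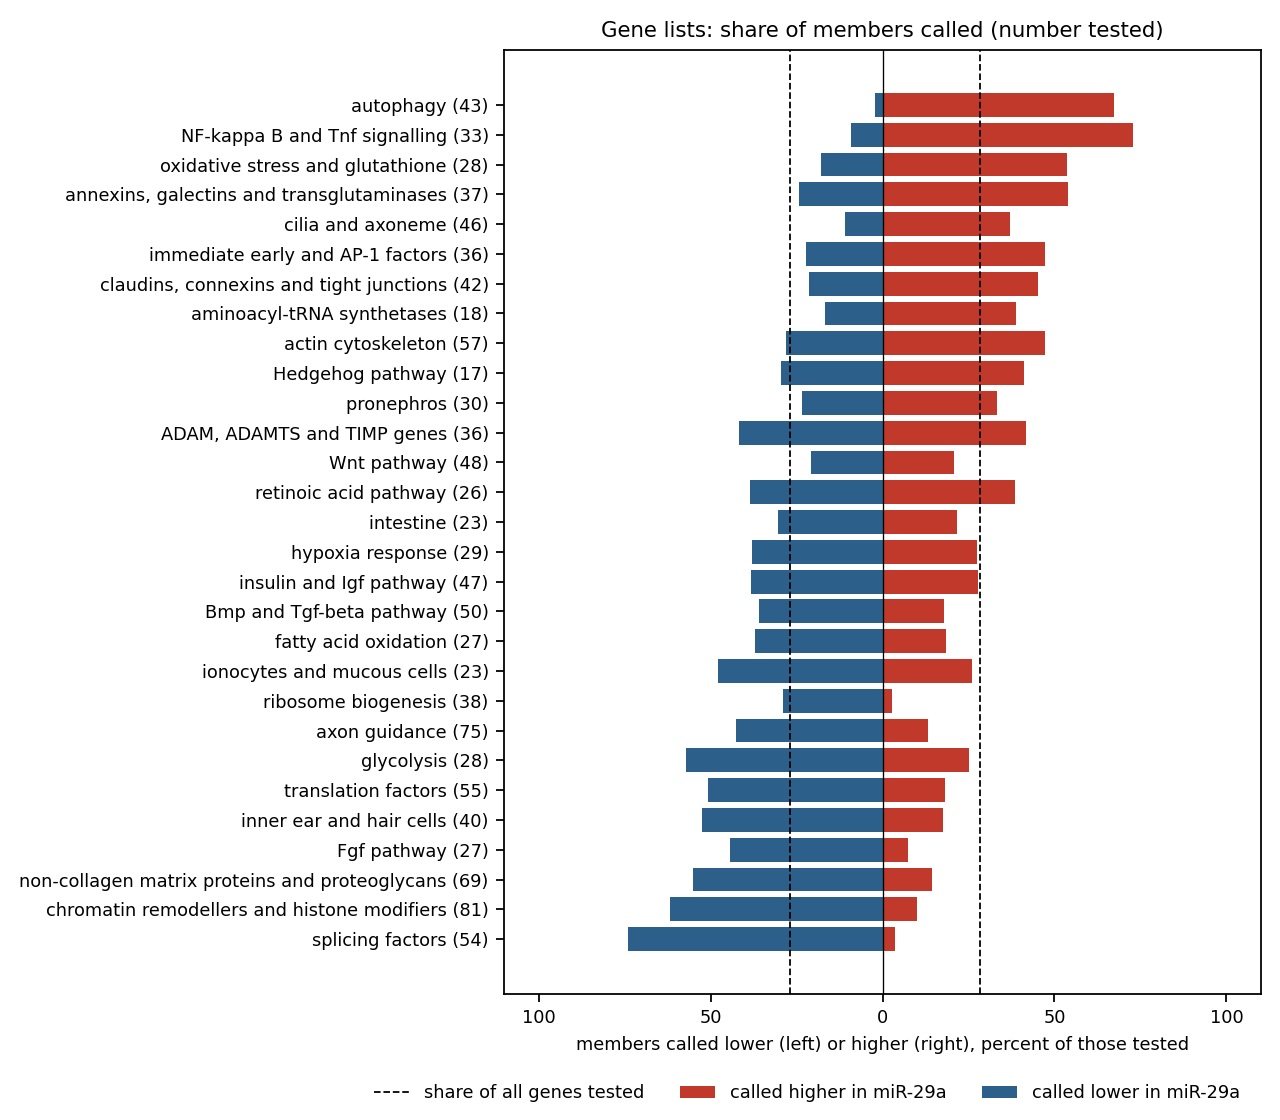
Percent of the tested members of each of 29 gene lists called higher (red, right) or lower (blue, left) in miR-29a embryos, with the number tested in brackets and dashed lines at the shares of all genes tested (28.2% and 27.0%). NF-κB signalling and autophagy reach furthest to the right, and splicing factors and chromatin genes furthest to the left.

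Whether these changes differed from those under the other microRNA was tested directly, with miR-29a set against miR-101a in a fit of 11 libraries that also held the controls. Of 21085 genes tested, 4486 (21.3%) were higher and 4657 (22.1%) lower in miR-29a than in miR-101a embryos, 43.4% in all. Of the 68 genes that the naming rule took by fold, p-value or CPM, 59 were called in this test, 58 of them in the direction of their change against control. The 68 genes were chosen by their values in the same miR-29a libraries, so these counts follow in part from that choice. The largest difference among the 68 genes was that of ctsll, at 3.69 (log2, SE 0.33, adjusted p = 3.50e-05). FN1 (ENSDARG00000006526) was higher by 2.22 (log2, SE 0.09, adjusted p = 4.33e-10), apoeb by 1.35 (log2, SE 0.08, adjusted p = 1.06e-08), MMP9 by 2.68 (log2, SE 0.35, adjusted p = 3.70e-04) and il11b by 2.73 (log2, SE 0.72, adjusted p = 0.0213). Lower in miR-29a embryos were muc5.2, at -2.74 (log2, SE 0.34, adjusted p = 1.83e-05), the keratin gene krt91, at -0.89 (log2, SE 0.13, adjusted p = 1.88e-04), and pvalb1, at -1.06 (log2, SE 0.14, adjusted p = 1.10e-04).

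CYP51A1 was called in the opposite direction, lower in miR-29a than in miR-101a embryos, at -0.58 (log2, SE 0.13, adjusted p = 0.00370), although it was higher than control. The 9 genes without a call were gvin1l2, FKBP5, hpda, crygm2d15, FADS3, insig1, PKM, actb1 and actb2. For FADS3 the difference was -0.06 (log2, SE 0.13, adjusted p = 0.733), and for insig1 0.10 (log2, SE 0.07, adjusted p = 0.247). A missed threshold does not show that the microRNAs act alike on these genes. By family, 43 of 55 col, 15 of 17 krt and 11 of 12 genes of the SIX3 stem were lower in miR-29a than in miR-101a embryos, whereas 11 of 15 btr and 7 of 10 tdrd genes were higher. These families, too, were chosen by their calls in the same miR-29a libraries. Of the lists, aminoacyl-tRNA synthetases had the largest share lower (12 of 18, with 0 higher), against a background of 22.1%. Ionocyte and mucous cell genes (15 of 23 lower), pronephros genes (16 of 30) and non-collagen matrix genes (34 of 69) came next. Fgf (13 of 27) and Hedgehog genes (8 of 17) followed closely, and splicing factors (8 of 54) lay below the background. In the fit with miR-29a replicate 3, 1803 genes were higher and 1927 lower in this test.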

How the data were processed

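RNA was extracted from whole embryos, and libraries were made with an unstranded kit, per the labels' protocols, so overlapping genes on opposite strands cannot be told apart. The authors deposited gene counts as whole numbers, not normalized. Per the submitters' processing notes, the tools were featureCounts 1.4.6-p4, STAR 2.4.1d and bcl2fastq 1.8.4 and the build was GRCz10; no settings are given. The deposited RPKM values were divided by library totals recycled down the genes, and were used only to recover gene lengths.

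Counts of 7 libraries were fitted in R 4.3.3 with edgeR 4.0.16 (filterByExpr with a minimum count of 10, TMM scaling, robust quasi-likelihood test). Calls need an adjusted p under 0.05 (Benjamini-Hochberg, over all genes tested), and every adjusted p is from this test unless another is named. CPM are TMM-scaled, and SE is the log2 fold change over the root of the F statistic. The test was checked on simulated counts in which 100 genes changed 2-fold and 100 genes 4-fold, in both directions. It called 95 and 98 of these, and 17 of 20473 unchanged genes. Far more genes were called in the data, so the simulation cannot check the scaling used there. Total counts per library ran from 21370921 to 29585294, which limits precision mainly for genes under 1 CPM. Replicates of a group differed by more than sampling noise, with a chi-square per degree of freedom of 1.63 to 9.38.

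The naming rule took called genes with a symbol, separate groups and a mean of 1 CPM or more in the higher one: the 15 largest rises and falls, the 10 smallest p-values and the 10 largest CPM changes per direction. From each list and each of the 20 families shown, at most 2 called genes per direction were added. A few genes that the rule takes are not reported here. Further members are named after their values were seen. The members and the 29 lists were chosen with earlier results of these data known, and 1143 of 1209 list entries matched a gene symbol. Families are symbol stems before the first digit with at least 10 genes tested.

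miR-29a was set against miR-101a in a fit that also held the controls. Alternatives were median-ratio scaling, DESeq2 1.42.0, 2 other filters on low counts, the replicate number as a block, glmTreat with a 1.2-fold minimum, a gene length correction, the miR-101a libraries added, miR-29a replicate 3 added, and each library left out. Matches to the microRNA seed were not analysed here, since no transcript sequences were used.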

Additional observations from a re-analysis of the deposited data

Results flagged for a closer look

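Of 216 named genes with values in the control group, 18 had a control library that stood apart from the other 3 by more than a Dixon test at the 95% level allows, and chance alone flags about 1 in 20 groups. Of these, 12 were flagged for control replicate 3, 3 for replicate 4 and 3 for replicate 1. Control replicate 3 was the highest in SOAT2 (15.3 CPM), actb2 (4564 CPM), MYL1 (4928 CPM), FZD8 (52.2 CPM), MYL9 (11.3 CPM) and USH1C (2.69 CPM). It was the lowest in opn6a (1.90 CPM), apobb.1 (3159 CPM), MTTP (15.5 CPM), SLC4A1 (286.6 CPM), ATP1B1 (32.2 CPM) and ctnna1 (144.5 CPM). Control replicate 4 stood apart in INHBB (36.8 CPM), bcl3 (0.552 CPM) and SRSF7 (3.67 CPM), and control replicate 1 in nr1d2a (35.8 CPM), SMARCB1 (116.01 CPM) and THBS4 (84.4 CPM). None of these 18 genes lost its call when the control library that stood apart was left out.

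In miR-29a replicate 3, which entered no fit reported as a main result, il11b had a count of 246, against counts of 72, 40 and 123 in miR-29a replicates 1, 2 and 4 and 0 in each of the 4 control libraries.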

How the results depend on the processing

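Under the other scalings, filters and tests, the numbers of genes called stayed within 1.5 times those reported, except in 2 settings. Against a 1.2-fold minimum, 3522 genes were higher and 2734 lower than in control, and 1973 higher and 2290 lower than in miR-101a embryos; fewer small changes can pass by construction. With miR-29a replicate 3 added, the numbers were 2629 and 1693 against control, and 1803 and 1927 against miR-101a. Leaving out 1 library gave 5272 to 5725 higher and 5061 to 5478 lower genes than control (at least 2-fold, 1219 to 1424 and 969 to 1249), and 3377 to 4278 higher and 3995 to 4817 lower than miR-101a. The labels do not say whether the replicate numbers pair the samples. Deviations from the group means of same-numbered libraries correlated at -0.04, -0.11 and 0.05, and no miR-29a library correlated best with the control library of its own number. With so few libraries per group, these values show no pairing but cannot exclude it. With the replicate block 5378 genes were higher and 5126 lower.

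Of 217 named genes, the added replicate 3 ended 65 calls without a change of direction. In a further 8 it ended the call and turned the log2 fold change against control: nfkbiab 0.029, PRDX4 0.069, NDUFB11 0.081, NDUFB5 0.088, RPL24 0.15, RPL12 0.10, rps27.1 0.12 and RPS12 0.11. Against miR-101a it turned ponzr4 to 0.74, ponzr3 to 0.68, gvin1l2 to 0.18, crygm2d16 to 0.35, crygm2d14 to 0.83, FKBP5 to 0.13, crygm2d15 to 0.83 and PKM to 0.23, none called. The uncalled difference of FADS3 was 0.042 with the replicate block and ran from -0.18 to 0.023 when libraries were left out, and that of actb2 ran from -0.020 to 0.096. No other setting ended more than 13 of the 217 calls against control. Of 98 list and family counts, 72 moved by over 1.5 times with replicate 3 added and 49 under the 1.2-fold minimum. The cause of these shifts was not tested. Values of genes under 1 CPM rest on few counts.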
